A study of Mus musculus with 2 samples.

Results

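The milk protein genes of the mouse were examined for Etv4 and Etv5 binding in EpRas cells. These are the 5 casein genes Csn1s1, Csn2, Csn1s2a, Csn1s2b and Csn3, which lie in 1 cluster on chromosome 5, together with Wap on chromosome 11 and Lalba on chromosome 15. The 7 genes are a family defined by function, and no region was used to pick single members, although earlier results of these data were known when the family was chosen. A region was assigned to a gene when it lay inside the gene or within 50 kb of it, and the casein cluster was taken as a single stretch from Csn1s1 to Csn3 with 50 kb on each side. By this rule, 2 of 13636 Etv4 regions and 3 of 8297 Etv5 regions belonged to the milk protein genes, whose 3 windows covered 572 kb.

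EpRas is a derivative of EpH4, a mouse mammary epithelial line, that carries oncogenic H-Ras. For both libraries the cells were in 4% serum and received TGF-β3 at 1 ng/ml over 1.5 h. This cytokine drives EpRas cells into epithelial-mesenchymal transition (EMT). One library was immunoprecipitated with a rabbit antibody to Etv4 and the other with a mouse antibody to Etv5, and the authors deposited a list of enriched regions for each. There was 1 library per antibody, so no difference between the lists could be tested against the spread between replicates. The lists give positions without read counts, and the sequencing depth is unknown. EpRas is a single transformed line in culture, and untreated cells, lactating tissue and control libraries were not analysed here.

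Caseins are the phosphoproteins that assemble into the micelles of milk and carry its calcium. Wap encodes whey acidic protein, a soluble protein of rodent milk, and Lalba encodes α-lactalbumin, the subunit that turns a galactosyltransferase into lactose synthase. All are switched on in the luminal secretory cells of the gland during pregnancy and lactation, when prolactin activates the transcription factor Stat5. Stat5 binds GAS sites (TTCNNNGAA) in their promoters and enhancers, together with the glucocorticoid receptor, NFI factors and Elf5. Elf5 is itself a member of the ETS family, as are Etv4 and Etv5, and the family recognises sequences with the core GGAA. RNA was not measured in these libraries, so whether the milk protein genes were silent cannot be read from the lists.

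Over the 3 windows together there were 2 Etv4 regions, compared with 2.86 at the mean density of that list, and 3 Etv5 regions, compared with 1.74. This corresponds to 3.50 Etv4 and 5.25 Etv5 regions per Mb, against 5.00 and 3.04 per Mb over the chromosomes. The Etv4 density depended on the limit and was above 5.00 at 100 kb (8.03 per Mb) and 200 kb (8.83 per Mb). The Etv5 density was 6.88 and 6.11 per Mb at these limits. With 50 kb, each list reached 2 of the 3 loci. An Etv4 region lay inside or within 50 kb of 2 of the 7 genes, Wap and Lalba, compared with 53.4% of the 21938 protein-coding genes in the annotation. Etv5 regions were found at 2 of the 7 genes, Csn1s1 and Wap, against 42.7% of protein-coding genes. The Etv5 count depended on the limit, since Lalba, Csn3 and Csn2 lay 51.3 to 69.7 kb from an Etv5 region. With 100 kb it was 5 of 7 against 56.3% of protein-coding genes, and with 200 kb 7 of 7 against 71.3%, so that the members were below the share of all genes at 50 kb and above it at the wider limits. In the longer 50% of the Etv5 list it was 2 of 7 at 50 kb against 25.5% of protein-coding genes. The Etv4 count was 2 of 7 at 50, 100 and 200 kb, while the share of all genes rose from 53.4 to 65.5 and 77.8%. Wap was the member with regions of both lists, which was the case for 36.4% of protein-coding genes. At 4 members, Csn2, Csn1s2a, Csn1s2b and Csn3, no region of either list lay within this distance, whereas 59.6% of protein-coding genes had at least 1. The casein genes share much of their windows, so the 7 genes amount to 3 separate loci. With so few loci, these counts describe the milk protein genes and do not set them apart from other genes.

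**Figure D1:**
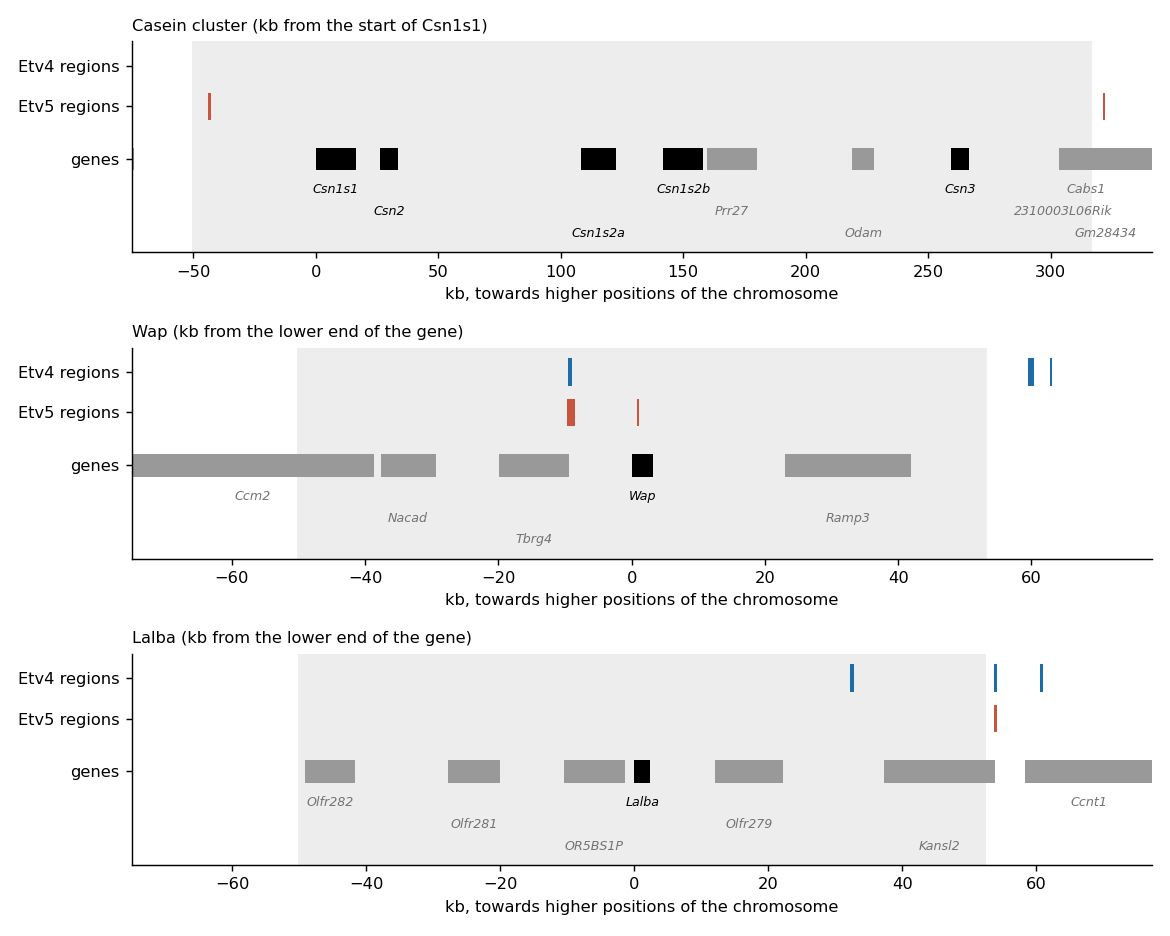
Listed regions and protein-coding genes at the casein cluster, Wap and Lalba; the horizontal axis is the distance in kb and grey shading marks the window with 50 kb on each side. Blue and red bars are Etv4 and Etv5 regions (narrow ones are widened to stay visible), black boxes are the milk protein genes and grey boxes other protein-coding genes; the only bar that touches a black box is the Etv5 region in Wap.

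Within the gene bodies, no Etv4 region overlapped any of the 7 genes, and 23.0% of protein-coding genes contained one. A single Etv5 region overlapped a member, in an intron of Wap, and 1 of 7 is close to the 14.7% of protein-coding genes that contained an Etv5 region. Regions of both lists were inside none of the 7 genes, against 10.4% of protein-coding genes, and a region of either list was inside 1 of 7, against 27.4%. No member had an Etv4 region within 2 kb of a transcript start, and for Etv5 it was Wap alone. Among all protein-coding genes, 17.9% had the midpoint of an Etv4 region and 10.6% that of an Etv5 region within 2 kb of an annotated transcript start.

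The casein cluster extends over 266 kb, from 87666208 to 87932665 on chromosome 5 in mm10. In order, it contains Csn1s1 (ENSMUSG00000070702.9, 87666208 to 87682578, plus strand), which encodes αs1-casein, and Csn2 (ENSMUSG00000063157.9, 87692624 to 87699630, minus strand), which encodes β-casein. These are followed by Csn1s2a (ENSMUSG00000061937.7, 87774567 to 87788797) and Csn1s2b (ENSMUSG00000061388.11, 87808082 to 87824426), which encode αs2-type caseins, and by Csn3 (ENSMUSG00000001622.15, 87925579 to 87932665), which encodes κ-casein, all on the plus strand. The whole stretch from the first to the last casein gene held 0 Etv4 regions and 0 Etv5 regions. Adding 50 kb on each side brought in 1 Etv5 region and no Etv4 region. At the mean density over the chromosomes (5.00 Etv4 and 3.04 Etv5 regions per Mb), a window of this length would hold 1.83 Etv4 and 1.11 Etv5 regions, so a count of 0 or 1 in the window is not far from the mean.

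The Etv5 region of the casein window was intergenic. It measured 548 bp (chr5:87622403-87622950) and lay 43.3 kb upstream of Csn1s1 and 30.8 kb from Sult1e1, an estrogen sulfotransferase gene that was the nearest protein-coding gene. No Etv4 region overlapped it. In the Etv5 list, 47.2% of regions were longer. It had no ETS site (CCGGAAGT or CAGGAAGT on either strand), which 8.22% of Etv5 regions had. It contained 2 AP-1 sites, TGAGTCA from 87622854 to 87622860 and TGACTCA from 87622940 to 87622946. AP-1, the Fos and Jun dimer, is a target of Ras signaling, and 35.8% of Etv5 regions contained at least 1 such site. The part of the region with both sites is shown because it is the only listed sequence at the casein genes; it is the plus strand of chr5:87622649-87622948 with AP-1 sites and the core GGAA (TTCC on the other strand) in capitals.
Etv5 region upstream of Csn1s1: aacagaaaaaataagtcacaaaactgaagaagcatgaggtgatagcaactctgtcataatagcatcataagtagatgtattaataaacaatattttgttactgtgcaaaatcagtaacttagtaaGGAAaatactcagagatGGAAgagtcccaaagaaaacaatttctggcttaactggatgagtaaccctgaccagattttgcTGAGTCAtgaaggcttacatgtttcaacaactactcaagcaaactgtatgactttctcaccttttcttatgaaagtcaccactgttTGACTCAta

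Beyond the window, the Etv5 list resumed just outside the limit on the other side. The next Etv5 region (chr5:87987341-87987894) lay 54.7 kb from Csn3, in an intron of the predicted gene Gm28434, and contained neither an ETS nor an AP-1 site. The Etv4 list did not resume for a long distance. Etv4 regions were absent from 86758775 to 88720597, a stretch of 1.96 Mb that includes all 5 casein genes. Of the 13609 intervals between consecutive Etv4 regions, 187 (1.37%) were longer, and the median interval was 37.2 kb. This interval was taken because it holds the caseins, and a long interval is more likely to hold a given gene. The share per interval therefore makes it look rarer than the share per gene. Counted per gene, 4.64 to 5.91% of protein-coding genes were farther from an Etv4 region than the caseins. The stretch was bounded by Etv4 regions, so its count of 0 follows from how it was drawn. The Etv5 list had 4 regions in it, compared with 5.97 at the mean density of that list.

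**Figure D2:**
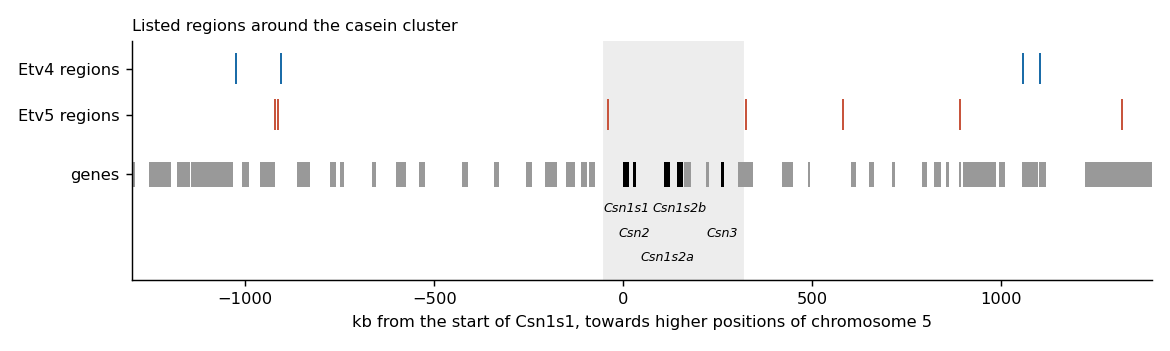
Listed regions around the casein cluster, with the distance from the start of Csn1s1 in kb on the horizontal axis; bars are Etv4 (blue) and Etv5 (red) regions, each drawn at least 5 kb wide, and boxes are protein-coding genes (caseins in black). The nearest Etv4 regions lie 907 kb below Csn1s1 and 788 kb above Csn3, while 4 Etv5 regions lie between them.

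Properties of the sequence were recorded beside this absence, and their part in it was not tested. The casein window had no unknown bases. It contained 36.9% G and C, against 41.7% in the genome. Multicopy 36-base sequences made up 11.1% of it, below the 17.6% found genome-wide, and repeats made up 35.5% of the window against 36.4% of the genome. ETS sites were present at 0.60 per 10 kb (22 sites) compared with 0.754 per 10 kb over the genome, and AP-1 sites at 1.83 per 10 kb (67 sites) compared with 1.64. None of the 22 ETS sites lay in a listed region. Such sites were rarely covered anywhere, since 0.869% of the 199648 ETS sites of the genome were in Etv4 regions and 0.377% in Etv5 regions.

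Wap (ENSMUSG00000000381.10) occupies 3.16 kb on the minus strand of chromosome 11, from 6635482 to 6638637. It was the member with most regions, 1 of Etv4 and 2 of Etv5. The Etv5 region inside the gene (chr11:6636243-6636567) was intronic. Its midpoint was 2.23 kb downstream of the start of the gene and 1050 bp from the nearest annotated transcript start, that of a shorter Wap transcript. The region was one of the shorter ones, at 325 bp, and 90.1% of Etv5 regions were longer. No Etv4 region overlapped it, and the nearest was 9.01 kb from the gene. It contained no ETS site, no AP-1 site and no GAS site, which 5.05, 23.9 and 11.0% of the Etv5 regions of 300 to 350 bp had. The core GGAA was also absent from both strands, as in 52 of 8289 Etv5 regions (0.627%) and in 33 of the 1385 Etv5 regions of 300 to 350 bp (2.38%). In the 500 bp around the midpoint of the region, the core occurred 2 times. Repeats made up 15.4% of the region, but none of its 36-base sequences occurred elsewhere in the genome. As it is the only listed region inside a milk protein gene, 300 of its bases are shown (chr11:6636255-6636554, plus strand, which is antisense to Wap), and no letter is in capitals because no site was found.
Etv5 region in an intron of Wap: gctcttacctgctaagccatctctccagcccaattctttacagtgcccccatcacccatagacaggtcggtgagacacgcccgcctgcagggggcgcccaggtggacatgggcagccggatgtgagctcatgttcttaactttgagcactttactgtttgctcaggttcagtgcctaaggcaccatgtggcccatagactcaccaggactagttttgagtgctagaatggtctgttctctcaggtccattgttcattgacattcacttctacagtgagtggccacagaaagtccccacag

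The other pair of regions in the Wap window overlapped each other at the start of the neighbouring gene Tbrg4, which encodes a regulator of mitochondrial RNA. The Etv4 region (chr11:6625949-6626471) measured 523 bp and lay within the Etv5 region (chr11:6625818-6627037) over its whole length. The Etv5 region was 1220 bp long, and 1.33% of Etv5 regions were longer. Midpoints were 143 and 360 bp from the Tbrg4 start, and the regions ended 9.01 and 8.45 kb from the downstream end of Wap. Tbrg4 is transcribed away from Wap, and both regions overlapped the first bases of Tbrg4 and extended from there toward Wap. GC content was 62% in the Etv4 region and 56.6% in the Etv5 region. Neither had an ETS site, which 11.7% of Etv4 and 8.22% of Etv5 regions had. Neither had an AP-1 site, which 38.7 and 35.8% had. The core GGAA was found 8 and 21 times on either strand, and 99.6% of Etv4 and 99.4% of Etv5 regions had it at least once. The 300 bases just upstream of Tbrg4 (chr11:6626068-6626367, plus strand) are shown with the core in capitals, because this is the only place in the 3 windows where both lists had a region.
Shared region at the Tbrg4 start: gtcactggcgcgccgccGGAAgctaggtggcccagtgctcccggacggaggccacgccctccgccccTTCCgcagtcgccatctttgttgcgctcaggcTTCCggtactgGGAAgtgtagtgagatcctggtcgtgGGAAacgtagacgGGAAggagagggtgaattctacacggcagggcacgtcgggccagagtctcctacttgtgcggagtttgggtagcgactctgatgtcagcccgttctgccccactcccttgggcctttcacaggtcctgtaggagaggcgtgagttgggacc

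Upstream of Wap, the side on which its lactation enhancers lie, no region of either list was found within 50 kb. The next Etv4 regions in that direction were just outside the limit, 56.4 and 59.6 kb from the gene (chr11:6695026-6695808 and chr11:6698248-6698588), on the far side of Ramp3. Both were intergenic and contained 1 and 2 AP-1 sites, and 38.7% of Etv4 regions had at least 1. The first of them also had 1 GAS site (TTCAAAGAA), and 19.5% of Etv4 regions had at least 1. Nearest to Wap on this side in the Etv5 list was a region 299 kb away. The Wap window had the highest density of ETS sites of the 3 windows, 1.94 per 10 kb (20 sites), and none of the sites was in a listed region. Its GC content was 49.9%, and 5.34% of its 36-base sequences were repeated in the genome.

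Lalba (ENSMUSG00000022991.5) occupies 2.32 kb on the minus strand of chromosome 15, from 98480400 to 98482721. Its window had 1 Etv4 region and no Etv5 region, a combination found for 16.9% of protein-coding genes. The converse, an Etv5 region without an Etv4 region, was seen at Csn1s1 and at 6.23% of protein-coding genes. The Etv4 region (chr15:98512598-98513195, 598 bp) was intergenic, 29.9 kb upstream of Lalba and 4.46 kb from the downstream end of Kansl2, which encodes a subunit of the NSL histone acetyltransferase complex. It had no ETS or AP-1 site, which 11.7 and 38.7% of Etv4 regions had, and 1 GAS site, TTCCTGGAA from 98513002 to 98513010. GAS sites were present in 19.5% of Etv4 regions. The central part is shown because it is the only listed sequence in the Lalba window (chr15:98512747-98513046, plus strand), with the GAS site and the core GGAA or TTCC in capitals.
Etv4 region upstream of Lalba: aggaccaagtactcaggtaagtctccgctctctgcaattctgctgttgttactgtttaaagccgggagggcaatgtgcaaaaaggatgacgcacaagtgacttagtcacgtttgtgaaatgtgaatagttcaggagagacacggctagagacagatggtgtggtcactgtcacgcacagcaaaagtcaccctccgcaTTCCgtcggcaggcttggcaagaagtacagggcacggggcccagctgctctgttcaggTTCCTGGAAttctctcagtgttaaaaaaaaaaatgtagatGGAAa

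Lalba lay toward 1 end of a stretch without regions. From 98093701 to 98512597, over 419 kb, neither list had a region, and olfactory receptor genes such as Olfr281, Olfr282 and Olfr279 surround Lalba there. Of the 16587 intervals between regions of both lists together, 1622 (9.78%) were longer. Counted over 500 kb, the lower side of Lalba had 2 Etv4 and 1 Etv5 regions, whereas the higher side had 17 Etv4 and 10 Etv5 regions. The first pair on that side was 51.4 and 51.3 kb away, just outside the limit, and lay at the start of Kansl2 (chr15:98534076-98534562 in the Etv4 list and chr15:98534064-98534588 in the Etv5 list). Farther on were regions at the starts of Ccnt1, a subunit of the elongation factor P-TEFb, and of Ddx23, a splicing helicase. At Wap, the lower and higher sides were more even, with 10 and 5 Etv4 regions and 3 and 2 Etv5 regions. The casein cluster had 0 Etv4 regions on both sides, and 1 and 2 Etv5 regions.

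The distance to the nearest region was then measured for each member. For Etv4, it was 788 kb for Csn3, 896 kb for Csn1s2b, 907 kb for Csn1s1, 932 kb for Csn1s2a and 934 kb for Csn2. Between 4.64 and 5.91% of protein-coding genes were farther from an Etv4 region than these genes, and the median over protein-coding genes was 41.1 kb. Wap (9.01 kb) and Lalba (29.9 kb) were closer than the median. The 5 casein distances are set by the same 2 Etv4 regions and are not independent. The midpoint of 1 of these regions lay in an exon where Gm16579 and Gm43055 overlap, and that region was 12.5 kb from Tmprss11e. The other region lay at the start of Mob1b.

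For Etv5, the order of the members was different. The distance was 0 for Wap, 43.3 kb for Csn1s1, 51.3 kb for Lalba, 54.7 kb for Csn3, 69.7 kb for Csn2, 152 kb for Csn1s2a and 163 kb for Csn1s2b. The median over protein-coding genes was 74.6 kb, so 5 of the 7 members were closer to an Etv5 region than the median. At Csn1s2b, the most distant, 33.1% of protein-coding genes were still farther away. Thus the casein genes stood at the far end of the distribution for Etv4 and near the middle for Etv5, although the Etv5 list was the shorter one.

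**Figure D3:**
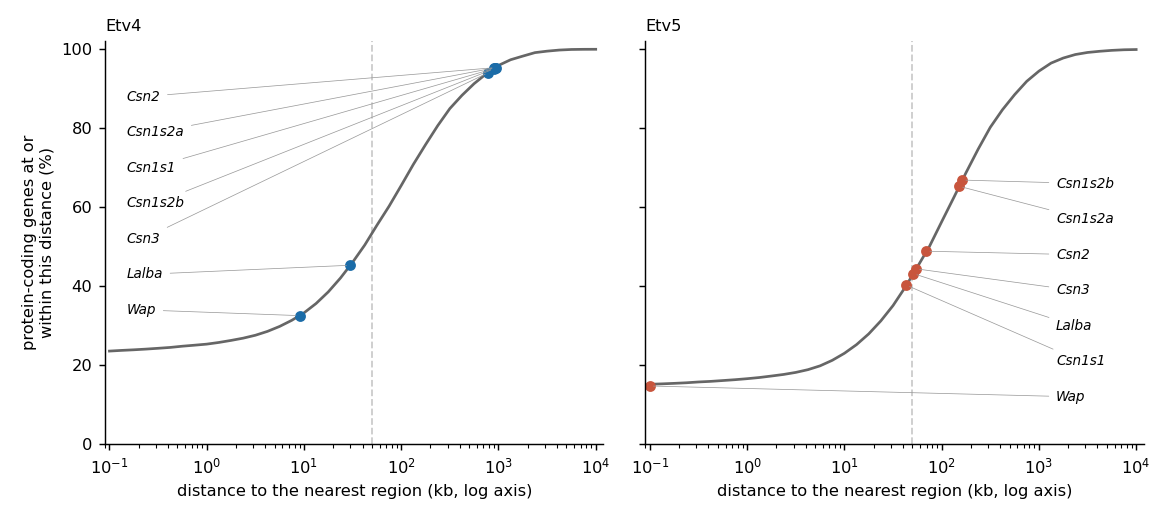
Share of protein-coding genes (vertical axis, %) at or within a given distance in kb of the nearest Etv4 region (left) or Etv5 region (right); dots are the 7 milk protein genes, the dashed line marks 50 kb, and a distance of 0 (Wap, Etv5) is drawn at 0.1 kb. The casein genes sit between 788 and 934 kb for Etv4 and between 43.3 and 163 kb for Etv5.

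The promoters themselves were examined for ETS sites. RefSeq promoters of GRCm38 were available for 5 of the 7 genes (Csn1s1, Csn2, Csn1s2a, Wap and Lalba), those of Csn1s2b and Csn3 being the other two. The RefSeq starts differ in part from the GENCODE genes given above, so that 205 of the 250 bases at Csn2 and 38 at Lalba lie inside the GENCODE gene. No region of either list overlapped any of the 5. In the 250 bases upstream of the RefSeq start, none had an ETS site (CCGGAAGT or CAGGAAGT), which 5.49% of 32851 RefSeq promoters had. None had an AP-1 site, found in 4.46%. Beyond the core, only these exact ETS sequences were searched, so related ones are not excluded. An example is AAGGAAGT in the Wap promoter, which differs from CAGGAAGT in its first base. The core GGAA occurred 3 to 5 times in each of the 5 promoters, but 93.4% of promoters had it at least once. GAS sites were present in 2 of the 5, Csn1s1 (TTCTTAGAA, 100 to 92 bases upstream) and Csn2 (TTCTTGGAA, 93 to 85 bases upstream), compared with 7.02% of all promoters. The Csn2 site lies inside the GENCODE gene. The promoters of Csn1s1, Wap and Lalba are shown, 1 for each locus, as the letters that were free of listed regions; capitals mark GAS sites and the core GGAA or TTCC. They run 5′ to 3′ on the strand of the gene and correspond to chr5:87665958-87666207, chr11:6638650-6638899 and chr15:98482722-98482933, the last of which leaves out the 38 bases inside the Lalba gene.
Csn1s1 promoter: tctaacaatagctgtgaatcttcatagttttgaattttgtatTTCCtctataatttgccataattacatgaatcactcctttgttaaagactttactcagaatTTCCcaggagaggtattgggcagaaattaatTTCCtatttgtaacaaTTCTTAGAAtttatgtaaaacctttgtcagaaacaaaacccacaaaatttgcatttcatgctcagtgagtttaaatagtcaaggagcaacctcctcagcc
Wap promoter: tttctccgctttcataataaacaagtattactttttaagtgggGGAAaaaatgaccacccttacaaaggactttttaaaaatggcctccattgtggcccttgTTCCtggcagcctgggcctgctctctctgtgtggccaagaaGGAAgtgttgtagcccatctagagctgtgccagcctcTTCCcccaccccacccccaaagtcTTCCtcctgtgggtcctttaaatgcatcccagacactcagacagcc
Lalba promoter: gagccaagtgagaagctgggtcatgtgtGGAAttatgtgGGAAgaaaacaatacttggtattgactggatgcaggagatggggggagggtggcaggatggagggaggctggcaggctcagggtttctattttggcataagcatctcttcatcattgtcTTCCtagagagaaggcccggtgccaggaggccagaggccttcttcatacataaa

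The Etv5 list came closest to a promoter at Wap, 2.08 kb from it, and the Etv4 list came within 12.2 kb of the same promoter. The Csn1s1 promoter was 43.0 kb from an Etv5 region and 907 kb from an Etv4 region. At Lalba, the distances were 29.7 kb for Etv4 and 51.1 kb for Etv5.

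Other genes in the windows were compared with the milk protein genes. Of the 14 further protein-coding genes that overlapped the 3 windows, Tbrg4 and Kansl2 had regions of both lists at their starts. In the casein window there were 5 such genes, including Odam and Cabs1. None had an Etv4 region within 50 kb (53.4% of all protein-coding genes), whereas 3 of the 5 had an Etv5 region (42.7% of all). All 3 owe this to the same Etv5 region in Gm28434, which lies outside the casein window. Of the 4 olfactory receptor genes in the Lalba window, Olfr281 and Olfr282 had no region of either list within 50 kb, OR5BS1P had 1 Etv4 region, and Olfr279 had 3 Etv4 regions and 1 Etv5 region.

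Gene lists of related and unrelated function were set beside the members, each with the rule of 50 kb. Among 16 genes specific to other tissues, such as Alb in liver and Ins2 in pancreatic islets, 7 had an Etv4 region and 4 an Etv5 region. Over all protein-coding genes, the shares were 53.4 and 42.7%. No start of the 16 genes was within 2 kb of a region midpoint, against 17.9% (Etv4) and 10.6% (Etv5) of all genes. Albumin and α-fetoprotein, which lie farther along chromosome 5, had no region of either list within 50 kb. Tg, the thyroglobulin gene of the thyroid, had 8 Etv4 and 9 Etv5 regions, of which 4 and 3 were inside the gene, which is 180 kb long. Among 14 other genes of milk and its secretion, 7 had an Etv4 region and 8 an Etv5 region. Of these, 6 had no region of either list, namely Glycam1, Mfge8, Ltf, Trf, Muc15 and Lao1. Others of the list had regions, such as Muc1 with 4 Etv4 and 2 Etv5 regions. Lpo, Cel and Folr1 each had 1 and 1, and Btn1a1 had 0 and 1. Plin2, which encodes a coat protein of lipid droplets, had the most of the 14, with 15 Etv4 and 9 Etv5 regions, 6 and 2 of them near its start. B4galt1, which encodes the galactosyltransferase that α-lactalbumin modifies in lactose synthase, had 6 Etv4 and 3 Etv5 regions.

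Of 16 genes of prolactin signaling and milk gene control, 12 had an Etv4 region and 9 an Etv5 region. In 5 of the 16, an Etv4 region lay within 2 kb of a start, against 17.9% of all protein-coding genes. For Etv5 it was 2 of the 16, against 10.6%. The 5 genes with an Etv4 region near a start were Nfib, Nr3c1, Ybx1, Gata3 and Id2. Nfib, a nuclear factor I gene, had 7 Etv4 and 5 Etv5 regions within 50 kb, and Nr3c1, the glucocorticoid receptor gene, had 5 and 5. Both genes are long (416 and 109 kb), so their windows span more sequence than those of short genes. Ybx1, which encodes a cold-shock protein, had 2 and 2, Gata3, a luminal regulator, had 2 and 1, and Id2, a helix-loop-helix inhibitor, had 3 and 0. Stat5a had 1 Etv4 region and no Etv5 region, and Stat5b had 2 and 1. Elf5 had 1 Etv4 region, 13.4 kb from the gene, and no Etv5 region. Prlr, the prolactin receptor gene, and the steroid receptor genes Esr1 and Pgr had none of either list.

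Of 7 keratin genes of luminal and basal mammary epithelium, 6 had an Etv4 region and 5 an Etv5 region. Krt7 had 14 Etv4 and 5 Etv5 regions, Krt18 had 8 and 6, Krt8 had 7 and 4, and Krt14 had 2 and 3, all with an Etv4 region near a start. Krt8 and Krt18 are neighbours whose windows overlap, so regions can be counted for both. Krt5 had none. For Etv4, the share of genes with a region was 28.6% among the milk protein genes, 43.8% among the genes of other tissues, 50% among the other milk genes, 75% in the prolactin list and 85.7% among the keratins. For Etv5, it was 28.6% among the milk protein genes, which was above the 25% of the genes of other tissues and below the 57.1, 56.2 and 71.4% of the other milk genes, the prolactin list and the keratins. The lists are small, their genes share windows, and no test was made.

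**Figure D4:**
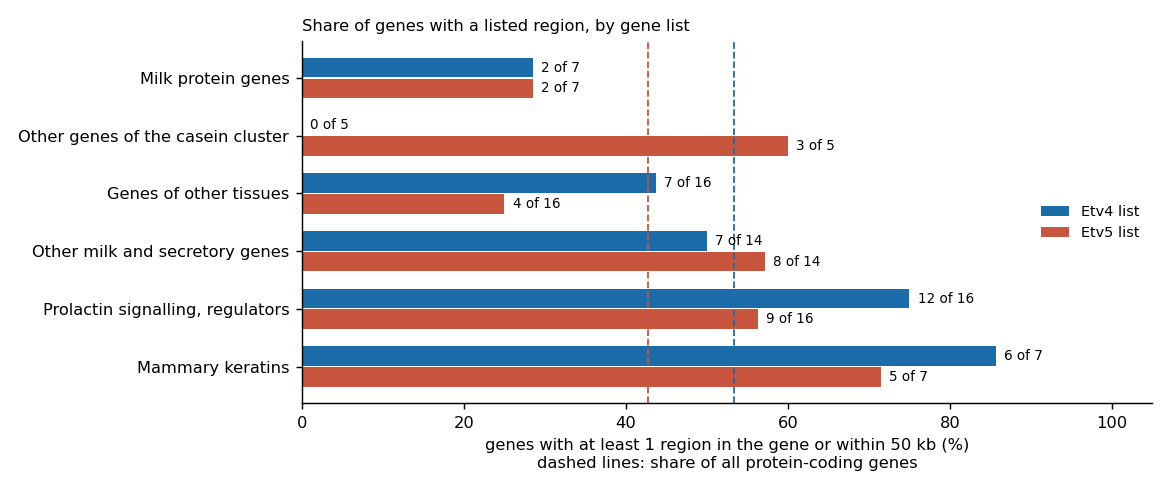
Percentage of genes with at least 1 region in the gene or within 50 kb (horizontal axis) for each gene list; blue and red bars are the Etv4 and Etv5 lists, labels give the number of genes, and dashed lines mark the share of all protein-coding genes (53.4 and 42.7%). The milk protein genes are at 2 of 7 for both lists, below both lines.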

How the data were processed

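ChIP-seq regions of 2 libraries from EpRas cells were analysed, 1 for Etv4 and 1 for Etv5, grouped by the antibody in the labels. The authors called regions per library with the one-sample mode of CisGenome (window of 300 bp, p threshold of 0.1), without a control library, so local mappability, copy number and open chromatin are not removed. The processing notes of the submitters name Bowtie and mm10. All regions carry the same deposited score (1000), which was not used, and neither was the deposited region number. No count of reads per region is given, so depth is unknown and absence cannot be told apart from too few reads. Positions are printed counting from 1.

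Genes came from GENCODE M21 and sequence from GRCm38, the assembly that mm10 names. Regions counted when they overlapped a window by 1 bp. The 21938 protein-coding genes on the nuclear chromosomes served as background. Patterns were searched on both strands, and repeats are the soft-masked bases of the RefSeq file. Repeated 36-base sequences were counted over both strands of the assembly without patches, and genome-wide at every 1000 bp. No test was made. The genes and gene lists were chosen with earlier results of these data known. Named genes were the members, genes at or nearest to a region in a window, and up to 6 genes per list with a region within 2 kb of a start, those with most regions first; the others named were chosen after their values were seen. Functions were tested on simulated data. The tools were matplotlib 3.10.9, numba 0.67.0, scipy 1.17.1, pandas 2.3.3, numpy 2.4.6 and Python 3.11.15.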

Additional observations from a re-analysis of the deposited data

How the results depend on the processing

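Of 49 values recomputed under the alternatives, 33 stayed within 1.5 times the main value (for shares, within its exact 95% interval) and 16 moved. With 10 kb on each side, there was 1 Etv4 region, at 1 gene (33.2% of all protein-coding genes), and 1 gene had an Etv5 region (23.0%). With 100 kb, there were 7 Etv4 regions (8.03 per Mb) and 6 Etv5 regions, and 5 genes had an Etv5 region (56.3% of all). With 200 kb, there were 13 Etv4 regions (8.83 per Mb) and 9 Etv5 regions, and all 7 genes had an Etv5 region (71.3% of all). The Etv4 density was thus below the 5.00 per Mb of the chromosomes at 50 kb (3.50) and above it at 100 and 200 kb, and the share of genes with an Etv5 region moved from below to above that of all genes; the cause was not tested. In the longer 50% of the Etv4 list, 1 region was left, at 1 gene (1.75 per Mb), compared with 2.51 per Mb over the chromosomes and 35.7% of all protein-coding genes for the same shortened list. In the longer 50% of the Etv5 list, 2 of 7 genes had a region, against 25.5% of all. Among the 8782 protein-coding genes as long as the members, 50.3% had an Etv4 region and 39.3% an Etv5 region. Merging within 300 bp, midpoints in place of overlaps, single casein windows and the removal of multicopy regions changed no count. Within the 50 kb windows, 0 regions had an ETS site, also with the strict pattern and with 500 bp around the midpoint. Over the whole lists, 11.7% of Etv4 and 8.22% of Etv5 regions had an ETS site, so most regions had none. Wider windows were not searched as a set. Depth limits all absences, and its effect cannot be measured from the lists. No paired analysis was possible because there was 1 library per antibody.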

Other observations

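The stretch of 1.96 Mb without Etv4 regions around the caseins contained 38 protein-coding genes, 5 of them caseins. Beside the caseins, it held genes of glucuronidation (Ugt2b1, Ugt2a3 and their neighbours), sulfotransferase genes (Sult1b1, Sult1d1, Sult1e1), and the tooth enamel genes Odam, Amtn, Ambn and Enam, which belong with the caseins to the secretory calcium-binding phosphoproteins. At its far end were Utp3, Rufy3 and Grsf1. The Etv5 region at Utp3, which encodes a factor of ribosome assembly, was the only one of the 4 Etv5 regions in this stretch with ETS sites (2 sites, chr5:88554058-88554469), and its midpoint was 199 bp from a Utp3 start. Of the other Etv5 regions there, the one from 88245477 to 88245923 consisted entirely of repeats (100% of its bases). These genes were named after their values had been seen.

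Around Prl, the prolactin gene itself, which is expressed in the pituitary, there were 6 Etv4 regions and 1 Etv5 region within 50 kb, the nearest 11.0 and 24 kb away. For Btn1a1, a gene of the milk fat globule membrane, the nearest Etv5 region was 5.54 kb away and the nearest Etv4 region 64.7 kb away.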
